A study of Saccharomyces cerevisiae with 8 samples.

Results

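The large subunit of the budding yeast ribosome is built from ribosomal RNA and a set of L proteins, and the genes for proteins L1 to L34 are described here. The members were taken by systematic name from the gene annotation that accompanies the counts. The list holds 60 genes, 52 of them in 26 pairs of A and B copies and 8 of them single-copy. Of these, 58 of the 4928 features of the series had a row of counts, and RPL21A and RPL29 were not analysed here. The 58 measured genes comprise 51 copies from pairs, with 25 pairs complete, and 7 single-copy genes. All 58 passed the filter on low counts, which left 4901 features for testing.

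Most ribosomal protein genes of yeast come in pairs left by an ancient duplication of the genome, and the partners encode identical or nearly identical proteins. The genes are known for being transcribed together at a high rate in fast growth and for being turned down in stress. The activator Rap1 binds many of their promoters and recruits Fhl1 and Ifh1, which respond to nutrient signals. Cdk8, called Srb10 in yeast, is the kinase of a detachable module of Mediator, the complex that links gene activators to RNA polymerase II.

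Newly made RNA was measured by 4tU-seq. Cells take up 4-thiouridine (4tU) for a short time, and RNA that carries the label is purified and sequenced. All groups used 1 haploid strain of mating type alpha with the alleles ade2::hisG, his3Δ200, leu2Δ0, lys2Δ0, met15Δ0, trp1Δ63 and ura3Δ0, in which the chromosomal SRB10 gene was replaced by KanMX. A centromeric TRP1 plasmid supplied srb10as-1, a form of the kinase with a tyrosine-to-glycine change that lets the inhibitor 1-NA-PP1 bind, so every group, controls included, relied on this plasmid-borne kinase. Cultures grown at 30 °C in YPD-Trp to an OD600 of 0.8 received 1-NA-PP1 at 6 µM, or an equal volume of the solvent DMSO, for 12 minutes. The groups were 1-NA-PP1 followed by heat shock at 37 °C for 12 minutes, DMSO followed by the same heat shock, 1-NA-PP1 at steady state and DMSO at steady state. The 4tU was then added at 5 mM, 5 minutes were allowed for uptake, and 2 libraries were made per group. The labels do not say whether replicates were separate cultures, so p-values measure the spread between these libraries, which may be technical.

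Heat-shocked libraries held 14680275 to 17743527 counts and steady state libraries 60372371 to 65134744, so depth moved with heat and its part in the heat comparisons was not tested. The lowest count of any member in any library was 62. The 3 mating type alpha markers measured stood at 206 CPM or more in every library, where CPM are counts scaled to a common library size, the 3 mating type a markers measured stood at 29.2 CPM or less, and ADE2, LEU2, MET17 and URA3, mutated in the strain, were at 0 in all libraries. Of 5 heat shock control genes, 4 rose under heat shock with 1-NA-PP1 and 5 rose with DMSO. CPM are relative to all counted RNA, so a smaller share of new RNA and less new RNA per cell cannot be told apart.

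Because partners can share reads, the similarity of each pair sets how its values can be read. Coding sequences of partners were identical at 78.9% of positions in pair L22 and at 99.4% in pair L1, and 7 of 26 pairs encode identical proteins (L1, L2, L12, L18, L19, L20 and L23). The last 60 coding bases show this range in pairs L1 and L22, the extremes, and in pairs L9 and L15, whose partners parted most under heat shock. Capitals mark bases that differ between the partners position by position, counted back from the stop codon without alignment. Sequence and positions are from the RefSeq assembly R64.
RPL1A (chrXVI:136384-136443, plus strand): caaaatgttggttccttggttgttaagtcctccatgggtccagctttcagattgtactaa
RPL1B (chrVII:255235-255294, plus strand): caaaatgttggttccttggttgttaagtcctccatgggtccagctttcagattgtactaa
RPL9A (chrVII:227754-227813, minus strand): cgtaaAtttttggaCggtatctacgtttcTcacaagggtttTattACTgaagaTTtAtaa
RPL9B (chrXIV:500197-500256, plus strand): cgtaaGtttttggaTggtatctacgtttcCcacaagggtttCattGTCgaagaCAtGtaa
RPL15A (chrXII:201976-202035, minus strand): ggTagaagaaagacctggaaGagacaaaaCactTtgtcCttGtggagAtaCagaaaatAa
RPL15B (chrXIII:509734-509793, minus strand): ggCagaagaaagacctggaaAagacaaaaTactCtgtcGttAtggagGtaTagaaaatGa
RPL22A (chrXII:263889-263948, plus strand): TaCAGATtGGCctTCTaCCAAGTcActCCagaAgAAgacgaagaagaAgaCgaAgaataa
RPL22B (chrVI:64243-64302, minus strand): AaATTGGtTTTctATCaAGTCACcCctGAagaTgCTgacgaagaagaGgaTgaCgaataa
Compared in this way, no base differed in the stretch of pair L1, against 10 in pair L9, 9 in pair L15 and 27 in pair L22. RPL22A encodes 121 residues and RPL22B 122, and no gap was allowed. Part of the stretch of pair L22 is thus read out of step, and its count and capitals overstate the difference. Over the whole transcript, 30.5% of 50-base words of RPL1A and 36% of those of RPL1B occur nowhere else in the genome, and the values are 33.8% for RPL4A and 34.1% for RPL4B. In pair L11 they are 51.8% for RPL11A and 50.5% for RPL11B. Levels and A to B ratios of pairs L1, L4 and L11 are therefore uncertain, since how reads with several matches were counted is not given in the sources used here. In pair L15 the values are 90.8% for RPL15A and 89.7% for RPL15B, and in pair L9 they are 88.6% for RPL9A and 90.6% for RPL9B. RPL11A, RPL31B and RPL32 also overlap a feature on the opposite strand, and whether reads were counted by strand is not given, so their values are uncertain.

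Levels were compared per kilobase of transcript, and the members spanned a wide range. With DMSO at steady state the median member had 90.5 CPM per kilobase, which lies at the 59.8th percentile of all features. The highest levels were those of RPL5 (YPL131W), whose protein binds 5S rRNA, and RPL10 (YLR075W), for a late-joining protein near the catalytic centre. RPL5 had 313 and 335 CPM per kilobase with DMSO at steady state, and RPL10 had 322 and 325. The ranges of this pair of neighbours overlap. RPL31A followed with 199 and 221 CPM per kilobase, RPL17A with 205 and 210, and RPL15A with 185 and 192. In the other groups RPL10 stood first and RPL5 second. RPL10 had 197 ± 12.3 CPM per kilobase with 1-NA-PP1 under heat shock, 262 ± 15.8 with DMSO under heat shock and 240 ± 42.5 with 1-NA-PP1 at steady state (SD, n = 2 each). RPL5 had 137 ± 14.3, 195 ± 20.4 and 202 ± 60.4 CPM per kilobase in the same order of groups. Their libraries did not overlap under heat shock and overlapped with 1-NA-PP1 at steady state. RPL31A and RPL17A were among the 5 highest in all groups, with RPL3 under heat shock and RPL15A at steady state as the remaining gene. This order depends on the scale: per unique kilobase RPL17A ranked 7, 6, 5 and 7 from 1-NA-PP1 under heat shock to DMSO at steady state, where RPL11B and RPL4A ranked 3 and 4.

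The lowest level in every group belonged to RPL1A (YPL220W), one of the genes for the mobile L1 stalk through which spent tRNA leaves. It had 6.16 ± 1.64 CPM per kilobase with 1-NA-PP1 under heat shock, 6.53 ± 0.696 with DMSO under heat shock, 10.03 ± 1.88 with 1-NA-PP1 at steady state and 14.3 ± 0.275 with DMSO at steady state (SD, n = 2 each). When the level was divided by the unique part of each transcript, RPL1A ranked 54, 55, 53 and 52 of 58 in those groups. RPL25, RPL23A and RPL1B were among the 5 lowest in all groups, and RPL9A was in all but DMSO at steady state, where RPL14A took its place. Per unique kilobase RPL1B was not among the lowest, at ranks 36, 42, 37 and 29. The highest level exceeded the lowest by 32.03 times with 1-NA-PP1 under heat shock, 40.1 times with DMSO under heat shock, 23.9 times with 1-NA-PP1 at steady state and 22.6 times with DMSO at steady state. Per unique kilobase these ratios were 15.5, 14.2, 10.9 and 10.1.

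The 7 single-copy genes covered most of this range. With DMSO at steady state RPL3, for a core protein of the peptidyl transferase region, had 135 ± 3.25 CPM per kilobase. RPL30, whose protein binds its own transcript and blocks its splicing, had 125 ± 5.91, and RPL32 had 91.5 ± 9.87. RPL28, the gene of resistance to cycloheximide, had 71.8 ± 6.82, and RPL25, whose protein sits at the rim of the exit tunnel where nascent chains emerge, had 32.1 ± 2.49 (SD, n = 2 each). Under heat shock RPL3 had 98.0 ± 6.16 CPM per kilobase with 1-NA-PP1 and 119 ± 6.07 with DMSO, while RPL30 had 36.4 ± 3.05 and 47.8 ± 3.99, so these neighbours at DMSO steady state were far apart in heat-shocked libraries. With 1-NA-PP1 at steady state RPL30 had 103 ± 13.5 and RPL3 had 87.6 ± 24.98, with overlapping libraries. RPL32 had 52.9 CPM per kilobase with 1-NA-PP1 under heat shock, 68.6 with DMSO under heat shock and 67.1 with 1-NA-PP1 at steady state. RPL28 had 37.7, 45.8 and 49.8 CPM per kilobase in those groups, and RPL25 had 15.7, 21.2 and 25.4.

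**Figure D1:**
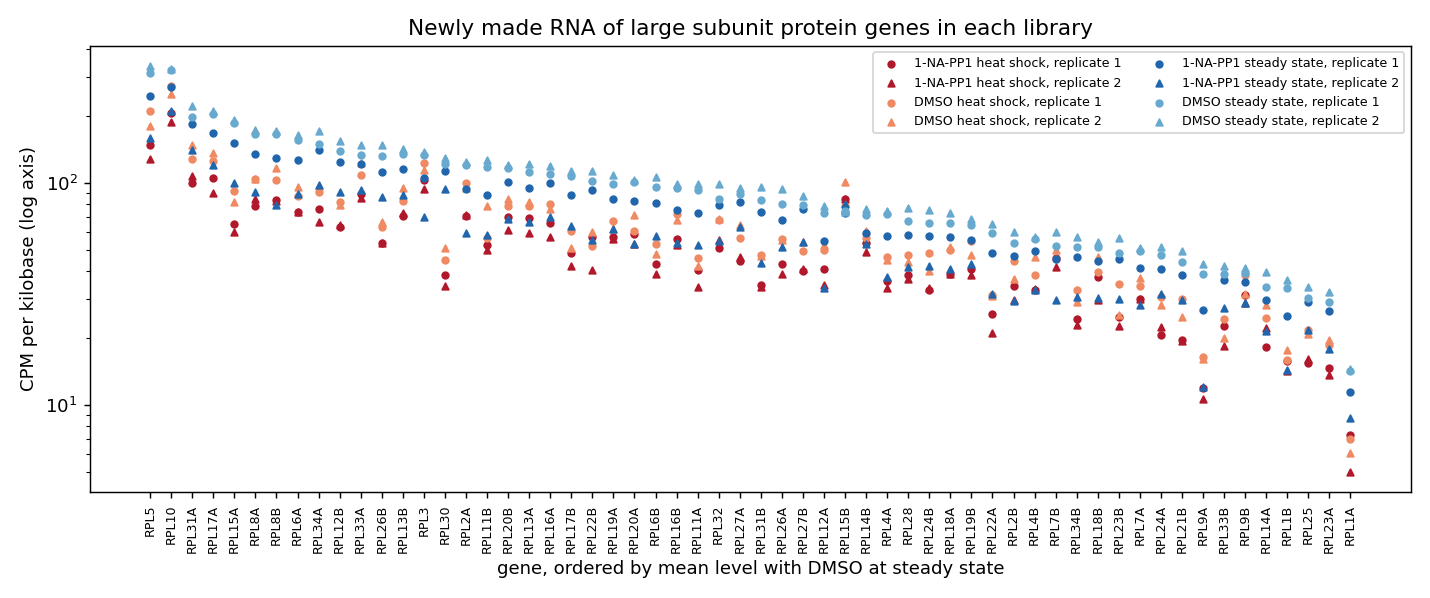
CPM per kilobase (log axis) of the 58 measured genes in each of the 8 libraries, ordered by the mean with DMSO at steady state, with circles for replicate 1 and triangles for replicate 2. RPL5 and RPL10 stand highest and RPL1A lowest, and RPL15B, near the middle, is the gene whose heat-shocked libraries do not fall below its DMSO steady state libraries.

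Under heat shock new RNA fell from many of these genes. With 1-NA-PP1, 29 of 58 members fell and 0 rose, where 28.1% of all 4901 features fell and 25.3% rose. The median member changed by -0.51 on the log2 scale and the median feature by -0.02. With DMSO, 47 of 58 members fell and 0 rose, where 28.9% of features fell and 29.6% rose, and the medians were -0.66 for the members and -0.01 for all features. All 29 were among the 47. Calls are at a Benjamini-Hochberg adjusted p under 0.05 in edgeR's quasi-likelihood test, with all 8 libraries in the model. At an unadjusted p under 0.05, 38 members were lower with 1-NA-PP1, against 31.4% of features, and 50 with DMSO, against 31.7%. With 1-NA-PP1, both heat-shocked libraries lay below both steady state libraries in 38 members, against 40% of features, and above them in 1, RPL15B, against 36.5%. With DMSO they lay below in 57, against 43% of features, and above in 1, RPL15B, against 40.9%. In 14 members all 4 heat-shocked libraries lay below all 4 steady state libraries, against 28.4% of features.

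The count with 1-NA-PP1 moved with each library of the groups compared. It was 53 lower without replicate 2 of 1-NA-PP1 at steady state, where 28.5% of features were lower. Without replicate 1 it was 23 lower and 3 higher, where 28.2% of features were lower and 25.9% higher. It was 19 without replicate 1 and 12 without replicate 2 of 1-NA-PP1 under heat shock, where 20.4% and 20.5% of features were lower. With DMSO the count was 30 without replicate 2 of DMSO at steady state, where 19.4% of features were lower. Under the authors' deposited scaling, which shifts the median of all features to -0.66 with 1-NA-PP1 and to -0.32 with DMSO, the members' medians were -1.20 and -0.97, with 1 and 57 members lower, against 3.74% and 42% of features.

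RPL30 (YGL030W) fell most in both heat comparisons. It had 27.2 and 24.1 CPM with 1-NA-PP1 under heat shock, 31.7 and 35.7 with DMSO under heat shock, 79.3 and 65.8 with 1-NA-PP1 at steady state, and 85.6 and 91.5 with DMSO at steady state. The heat-shocked libraries were all far below the steady state ones. The log2 change was -1.50 ± 0.12 with 1-NA-PP1 (SE, adjusted p 3.98e-05) and -1.39 ± 0.12 with DMSO (adjusted p 4.85e-05), and it stayed called with any library left out.

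The other genes with the lowest changes under heat shock with DMSO were of varied roles. RPL9A changed by -1.33 ± 0.33 (SE, adjusted p 0.00838), and without replicate 1 of DMSO under heat shock the change was -1.40 and no longer called. RPL1A (-1.13), RPL1B (-1.07), RPL15A (-1.12), RPL11A (-1.12), RPL26B (-1.11), RPL22A (-1.02), RPL6B (-1.002) and RPL17B (-0.98) also fell with DMSO. With 1-NA-PP1 the lowest after RPL30 were RPL15A (-1.01), RPL26B (-0.89), RPL21B (-0.80), RPL31B (-0.77), RPL22A (-0.77), RPL6B (-0.76), RPL11A (-0.76) and RPL24A (-0.76), and all of these fell. RPL9A was among them at -0.78 but was not called (adjusted p 0.0815). RPL31B lost this call without either replicate of 1-NA-PP1 under heat shock, and RPL22A and RPL11A lost it without replicate 2.

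At the other end stood genes with little or no fall. With DMSO, RPL19B fell by 0.38 and RPL14B fell by 0.33, each with a call that a left-out library ended. RPL4B (-0.42), RPL2A (-0.33), RPL10 (-0.31), RPL18B (-0.30), RPL33A (-0.29), RPL7B (-0.24), RPL9B (-0.20) and RPL3 (-0.19) were not called, nor were RPL2B (-0.47) and RPL32 (-0.42). With 1-NA-PP1, RPL16B (-0.25), RPL12A (-0.23), RPL7A (-0.21), RPL18B (-0.15), RPL14B (-0.14), RPL9B (-0.10), RPL2A (-0.10), RPL3 (0.16) and RPL7B (0.23) were not called, nor was RPL15B (0.13). RPL3 and RPL7B turned negative without replicate 2 of 1-NA-PP1 at steady state.

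By role, most of the 9 genes for proteins at the rim of the exit tunnel fell. With 1-NA-PP1 7 of 9 fell and with DMSO 9 of 9 fell, with median log2 changes of -0.65 and -0.67. Over all features 28.1% and 28.9% fell in these comparisons. RPL25, RPL26A, RPL26B, RPL17A, RPL17B, RPL31A and RPL31B fell in both, while RPL19A and RPL19B changed by -0.37 and -0.31 with 1-NA-PP1, which was not called, and fell with DMSO. The 3 genes of the 5S particle, RPL5, RPL11A and RPL11B, had a median of -0.56 with 1-NA-PP1, where 2 fell, and of -0.86 with DMSO, where 3 fell.

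For proteins around the catalytic centre the counts are too small to set apart from the 28.1% and 28.9% of features that fell. Of RPL2A, RPL2B, RPL3, RPL4A, RPL4B and RPL10, 0 were called with 1-NA-PP1 and 1, RPL4A, fell with DMSO (-0.69). Their medians were -0.27 and -0.37. RPL3 had 133 and 122 CPM with 1-NA-PP1 under heat shock, 160 and 149 with DMSO under heat shock, 137 and 91.1 with 1-NA-PP1 at steady state, and 173 and 179 with DMSO at steady state. Its heat-shocked and steady state libraries overlapped with 1-NA-PP1 and did not overlap with DMSO. RPL12A and RPL12B, for the base of the stalk that binds translation factors, changed by -0.23 (not called) and -0.75 (called) with 1-NA-PP1, and both fell with DMSO, by 0.57 and 0.86. RPL24A and RPL24B, for a bridge to the small subunit, fell in both comparisons, by 0.76 and 0.59 with 1-NA-PP1 and by 0.75 and 0.68 with DMSO.

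The counts were also split by copy number and structure, without a test between the classes. Over all features, 28.1% fell with 1-NA-PP1 and 28.9% with DMSO, and the counts of the 7 single-copy genes are too small to set apart from these shares. With 1-NA-PP1, 3 of 7 single-copy genes and 26 of 51 members of pairs fell, and with DMSO 4 of 7 and 43 of 51 fell. Of the single-copy genes RPL5, RPL25 and RPL30 fell in both comparisons and RPL28 with DMSO, at -0.40 with 1-NA-PP1 and -0.65 with DMSO. Among the A copies 14 of 25 fell with 1-NA-PP1 and 23 of 25 with DMSO, and among the B copies 12 of 26 and 20 of 26. Genes with an intron in the coding sequence fell in 21 of 38 cases with 1-NA-PP1 and in 33 of 38 with DMSO, against 8 of 20 and 14 of 20 of those without. Across the 58 genes the change under heat shock had a Pearson r with the level at DMSO steady state of -0.05 with 1-NA-PP1 and 0.04 with DMSO, as a description over genes measured in the same libraries.

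**Figure D2:**
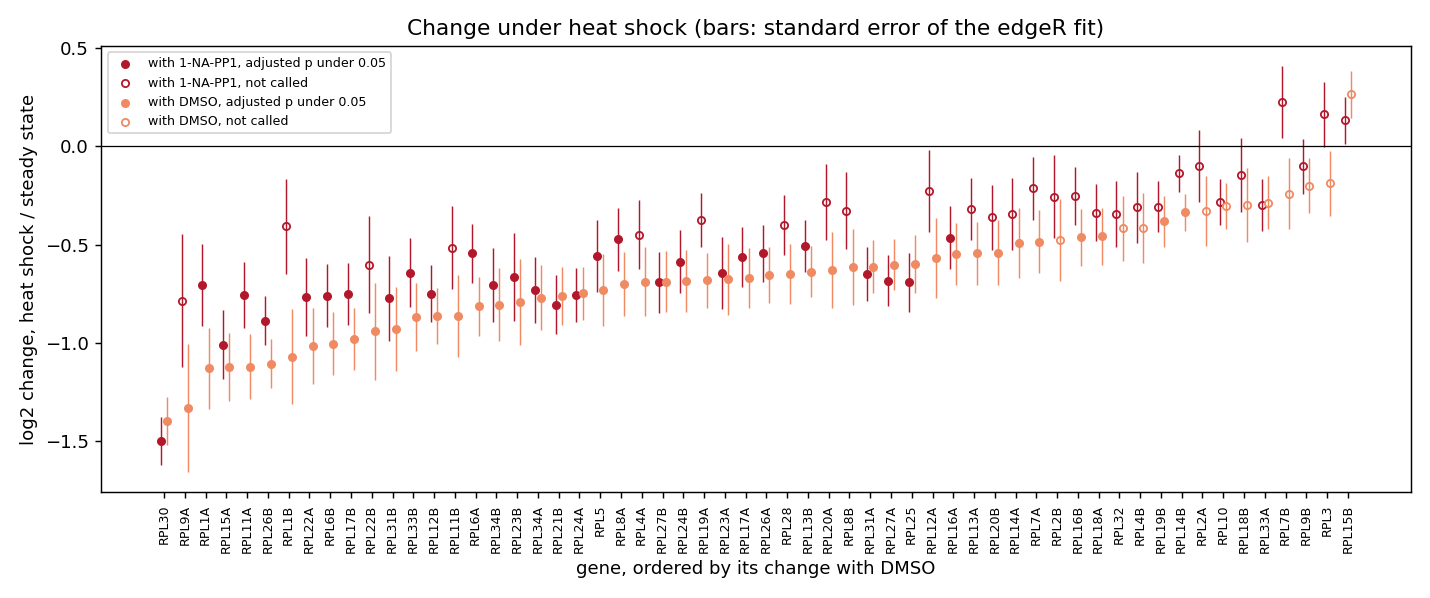
Log2 change of heat shock over steady state for the 58 genes with 1-NA-PP1 (dark red) and with DMSO (orange), with bars for the standard error of the fit and filled points for called genes. RPL30 is lowest in both, 29 genes are filled with 1-NA-PP1 and 47 with DMSO, and RPL15B is above 0 in both without a call.

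Whether the fall under heat shock differed with the inhibitor was tested by the interaction term. edgeR's quasi-likelihood test called 0 of 58 members in the difference of the heat changes, and 1 feature of 4901 was called, 0.0204%, lower. At an unadjusted p under 0.05, 0 members were lower, against 7.81% of features, and 0 were higher, against 5.67%. DESeq2 called 0 members, where 0.286% of features were called lower and 0.204% higher. The median difference was 0.16, with 9 members negative. The largest positive differences were those of RPL1B (0.66 ± 0.34, SE), RPL9A (0.54 ± 0.47) and RPL7B (0.47 ± 0.26), followed by RPL1A (0.42), RPL11A (0.37), RPL3 (0.35), RPL11B (0.35), RPL20A (0.35), RPL12A (0.34) and RPL22B (0.34). The lowest were RPL15B (-0.13), RPL30 (-0.11), RPL25 (-0.09), RPL27A (-0.08), RPL21B (-0.04), RPL31A (-0.04), RPL33A (-0.01), RPL24A (-0.01), RPL27B (0.00) and RPL10 (0.02). Without replicate 1 of 1-NA-PP1 at steady state 24 members were called higher with a median of 0.46, where 9% of features were called higher and 8.34% lower, and without replicate 2 the count was 0 with a median of -0.07.

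The pairs whose partners parted most under heat shock were L15 (RPL15A, YLR029C, and RPL15B, YMR121C) and L9 (RPL9A, YGL147C, and RPL9B, YNL067W). RPL15A had 50.4 and 46.2 CPM with 1-NA-PP1 under heat shock, 70.6 and 63.1 with DMSO under heat shock, 117 and 77.3 with 1-NA-PP1 at steady state, and 143 and 148 with DMSO at steady state. RPL15B had 59.0 and 59.2 CPM with 1-NA-PP1 under heat shock, 54.8 and 70.4 with DMSO under heat shock, 51.3 and 56.4 with 1-NA-PP1 at steady state, and 52.2 and 51.8 with DMSO at steady state. Heat-shocked libraries were below steady state ones for RPL15A and above them for RPL15B within each treatment. RPL15A fell by 1.01 with 1-NA-PP1 and by 1.12 with DMSO, while RPL15B changed by 0.13 ± 0.12 (SE, adjusted p 0.372) and by 0.27 ± 0.12 (adjusted p 0.0863). Under the deposited scaling the changes of RPL15B were -0.49 and -0.03. Without replicate 2 of DMSO under heat shock its change with DMSO was 0.00045, and without replicate 1 it was 0.37 and called.

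The A copy's part of the counts of a pair does not depend on how libraries are scaled. For pair L15 it averaged 48.4% ± 5.46 in heat-shocked libraries and 68.7% ± 7.50 in steady state libraries (SD, n = 4 each), with no overlap. For pair L9 it averaged 25.9% ± 2.85 in heat-shocked libraries and 38.9% ± 9.37 at steady state, with an overlap, because replicate 2 of 1-NA-PP1 at steady state stood at 25.9%. The other steady state libraries of pair L9 stood at 38.4% with 1-NA-PP1 and at 45.0% and 46.3% with DMSO. RPL9A had 8.30 and 7.40 CPM with 1-NA-PP1 under heat shock, 11.4 and 11.2 with DMSO under heat shock, 18.6 and 8.38 with 1-NA-PP1 at steady state, and 27.1 and 29.8 with DMSO at steady state. RPL9B stayed between 24.02 and 34.6 CPM in all libraries.

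Smaller shifts of the A copy were seen in other pairs. Heat-shocked and steady state libraries did not overlap in 7 of 25 pairs. The A share was lower under heat shock in pairs L15 and L7 (43.6% ± 1.69 against 49.5% ± 1.32). It was higher in pairs L12 (43.4% ± 2.24 against 36.5% ± 3.66), L26 (42.2% ± 1.92 against 35.6% ± 0.62), L33 (83.4% ± 2.44 against 78.6% ± 0.38), L17 (69.1% ± 2.42 against 65.2% ± 0.32) and L6 (63.5% ± 2.12 against 60.2% ± 0.57). In a two-sided exact permutation test of 4 against 4 libraries these 7 pairs reached 0.0286, the smallest p that 70 arrangements can give, and the Benjamini-Hochberg adjusted p over the 25 pairs was 0.102, so 0 pairs were called. After adjustment over 25 pairs that smallest p passes the threshold only if many pairs reach it together. A shift of a few pairs could therefore not be called. By the same permutation test the log2 ratio of A to B gave 0 calls, with a smallest adjusted p of 0.102. The ratio ranks libraries as the share does, so it is not a separate check. For 1-NA-PP1 against DMSO, 0 pairs were called, 0 had an unadjusted p under 0.05 in the exact permutation test, and the smallest adjusted p was 0.786.

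In terms of change, the gap between partners with 1-NA-PP1 was 1.14 in pair L15, 0.68 in L9, 0.52 in L12, 0.44 in L7 and 0.34 in L26. With DMSO it was 1.39 in pair L15, 1.13 in L9, 0.58 in L33, 0.45 in L26 and 0.31 in L31. The median gap over 25 pairs was 0.19 with 1-NA-PP1 and 0.16 with DMSO. Both partners fell in 8 pairs with 1-NA-PP1 and in 18 with DMSO, 1 partner fell in 9 and 6 pairs, and neither fell in 8 and 1. Of all features 28.1% fell with 1-NA-PP1 and 28.9% with DMSO, and of the members 50% and 81% fell. Whether partners were called together more often than other members was not tested. Across the 25 pairs, the change of the A partner and that of the B partner had a Pearson r of 0.14 with 1-NA-PP1 and -0.04 with DMSO, as a description over genes that share libraries and, in some pairs, reads. The Spearman rank correlation was 0.17 in both comparisons, so the sign with DMSO depended on the measure.

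**Figure D3:**
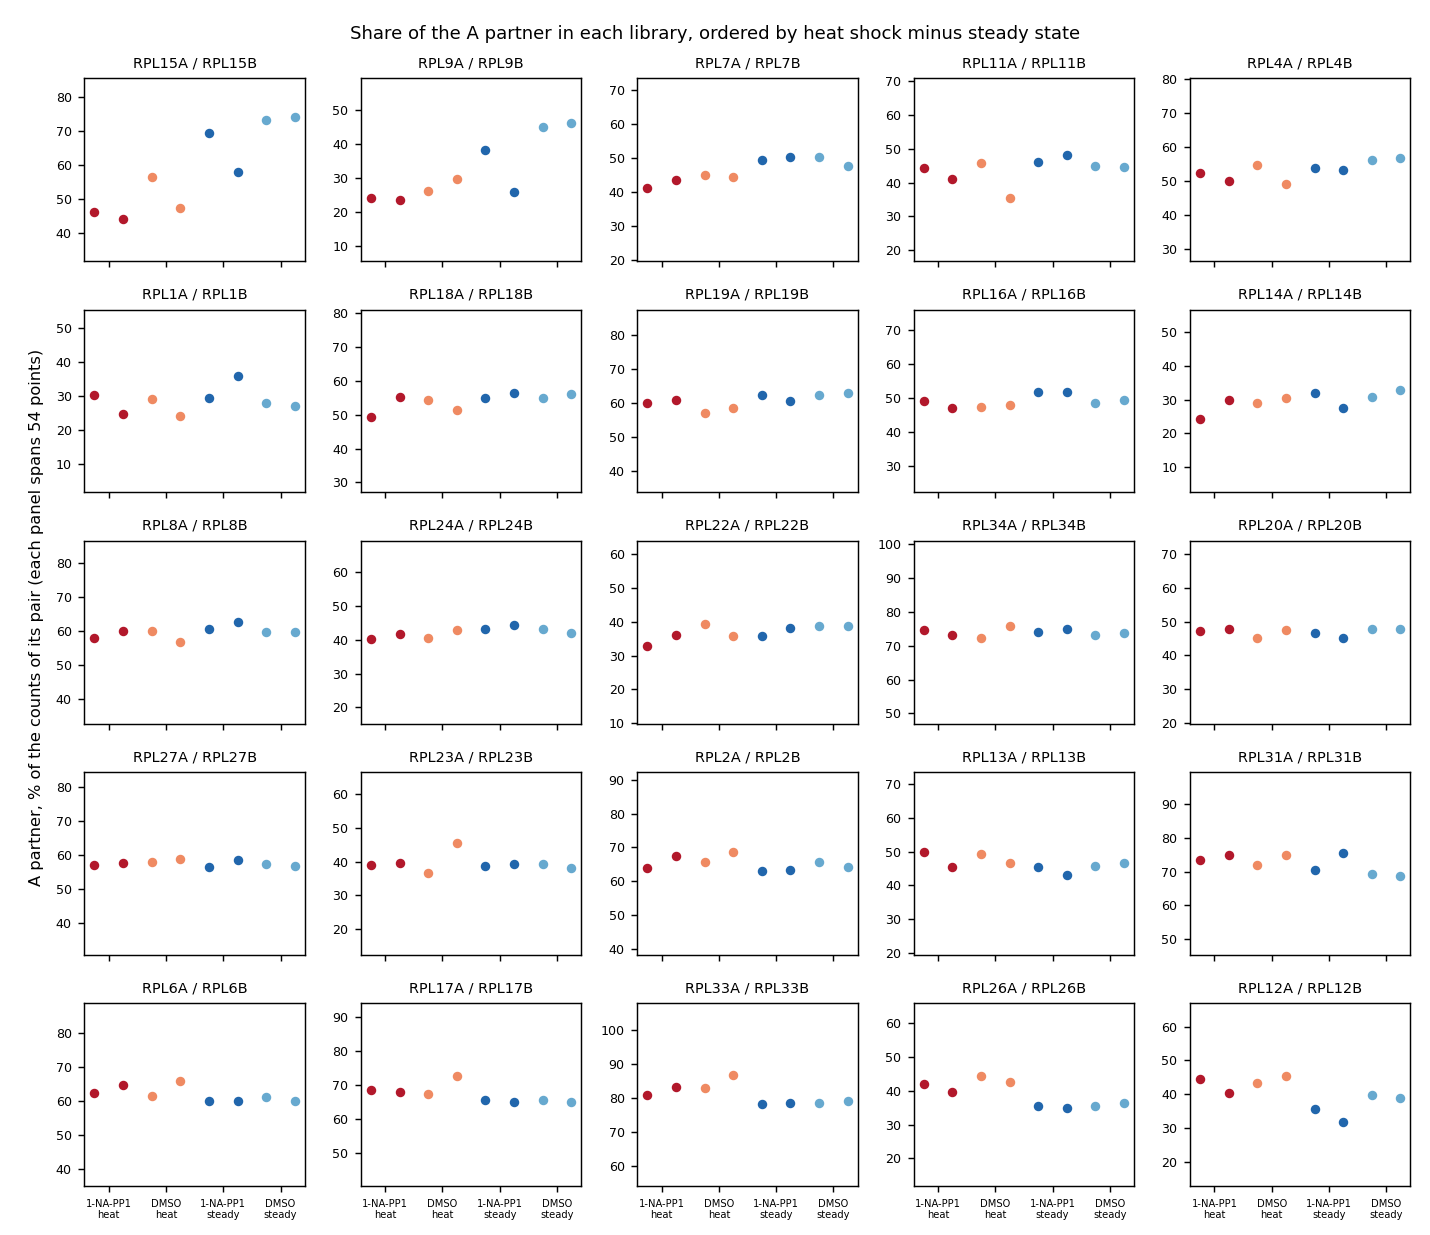
A copy's percentage of the counts of its pair in each library for 25 pairs, from heat-shocked with 1-NA-PP1 on the left to DMSO at steady state on the right. Pairs L15 and L9 show the largest differences between heat-shocked and steady state libraries. In the other pairs this difference is at most 6.87 points, and single libraries can spread further, as in L12 (31.7% to 45.3%).

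The bases upstream of pair L15 are shown because its partners parted most. Each window holds the 300 bases before the transcript start of the deposited annotation. The windows are from R64.
RPL15A (chrXII:202614-202913, minus strand): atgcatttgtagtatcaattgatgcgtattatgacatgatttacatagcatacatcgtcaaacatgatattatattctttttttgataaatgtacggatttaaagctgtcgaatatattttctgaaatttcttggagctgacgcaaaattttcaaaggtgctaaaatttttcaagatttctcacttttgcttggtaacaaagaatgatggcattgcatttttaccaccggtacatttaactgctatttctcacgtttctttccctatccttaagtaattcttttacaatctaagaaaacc
RPL15B (chrXIII:510384-510683, minus strand): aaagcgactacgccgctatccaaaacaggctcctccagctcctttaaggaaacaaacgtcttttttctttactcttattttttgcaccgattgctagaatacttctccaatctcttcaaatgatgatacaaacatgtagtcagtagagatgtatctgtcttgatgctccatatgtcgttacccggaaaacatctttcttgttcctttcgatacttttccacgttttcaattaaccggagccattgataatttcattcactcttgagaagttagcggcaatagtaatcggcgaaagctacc
The Rap1 core ACCCNNACA, searched on both strands, matched neither window. RPL15A held 1 match of the Stb3 motif AAAAATTTT, on the minus strand of the transcript, and RPL15B held none. RPL15A also held a match of the Abf1 motif, 245 to 234 bases before its start on the minus strand, and RPL15B held none. Whether either motif has a part in the gap between the partners was not tested. No match says only that the letters of a motif are not in the window.

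Partners of pair L26 both held the Rap1 core, which is in capitals, and both genes fell. RPL15A fell as well, without a match, and pair L26 was itself among the pairs with the largest gaps between partners. A link between the core and the fall was not tested.
RPL26A (chrXII:818995-819294, plus strand): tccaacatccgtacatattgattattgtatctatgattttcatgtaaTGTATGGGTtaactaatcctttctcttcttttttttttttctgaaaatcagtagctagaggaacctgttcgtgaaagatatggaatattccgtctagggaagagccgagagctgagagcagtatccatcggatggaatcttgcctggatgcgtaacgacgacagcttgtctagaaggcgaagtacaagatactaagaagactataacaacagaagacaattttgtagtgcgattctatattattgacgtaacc
RPL26B (chrVII:555455-555754, plus strand): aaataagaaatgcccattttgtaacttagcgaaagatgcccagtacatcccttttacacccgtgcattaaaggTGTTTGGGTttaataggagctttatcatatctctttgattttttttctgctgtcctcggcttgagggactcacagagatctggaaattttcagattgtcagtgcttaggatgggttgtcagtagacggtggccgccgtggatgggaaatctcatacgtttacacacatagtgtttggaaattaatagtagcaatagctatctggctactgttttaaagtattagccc
RPL26A had 40.7 and 36.8 CPM with 1-NA-PP1 under heat shock, 52.6 and 52.1 with DMSO under heat shock, 64.4 and 48.4 with 1-NA-PP1 at steady state, and 76.2 and 88.4 with DMSO at steady state. RPL26B had 56.2 and 55.9 CPM with 1-NA-PP1 under heat shock, 66.1 and 69.9 with DMSO under heat shock, 117 and 90.5 with 1-NA-PP1 at steady state, and 138 and 155 with DMSO at steady state. Heat-shocked and steady state libraries did not overlap for either gene within a treatment. RPL26A fell by 0.54 with 1-NA-PP1 and by 0.65 with DMSO, and RPL26B fell by 0.89 with 1-NA-PP1 and fell by 1.11 with DMSO. The matches lie 253 to 245 bases before the start of RPL26A and 227 to 219 before that of RPL26B. Among the members, 12 of 58 windows of 300 bases held the core (20.7%), against 3.67% of all 4928 windows, and in windows of 500 bases 29 of 58 did (50%), against 5.91%. The Stb3 motif was in 6.90% of the members' 300-base windows and 9.01% of all, and the Abf1 motif in 12.07% and 13.8%.

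For 1-NA-PP1 against DMSO, edgeR's quasi-likelihood test called 0 members at either temperature. At steady state 57 of 58 members had a negative log2 change, against 40.2% of all features, with a median of -0.51 for the members and 0.05 for all features. At an unadjusted p under 0.05, 54 members were lower, against 15% of features, and 0 features were called after adjustment. In 57 members both 1-NA-PP1 libraries lay below both DMSO libraries, against 28% of features, and in 0 they lay above, against 44.7%. DESeq2 called 44 members lower, against 11.4% of features.

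The libraries of 1-NA-PP1 at steady state stood apart from each other. The median member lay 0.29 below the DMSO steady state mean on the log2 scale in replicate 1 and 0.78 below it in replicate 2. In 57 of 58 members replicate 2 was the lower, and in 41 it lay below the mean of the heat-shocked DMSO libraries. For these counts the share of all features was not computed, so they do not set the members apart. Without replicate 2, 0 members were called with a median of -0.29. Without replicate 1, 57 were called lower with a median of -0.78, where 16.5% of features were called lower and 18.5% higher. Members took 0.351% of the counts in replicate 2, 0.502% in replicate 1, and 0.593% and 0.644% in the DMSO steady state libraries.

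**Figure D4:**
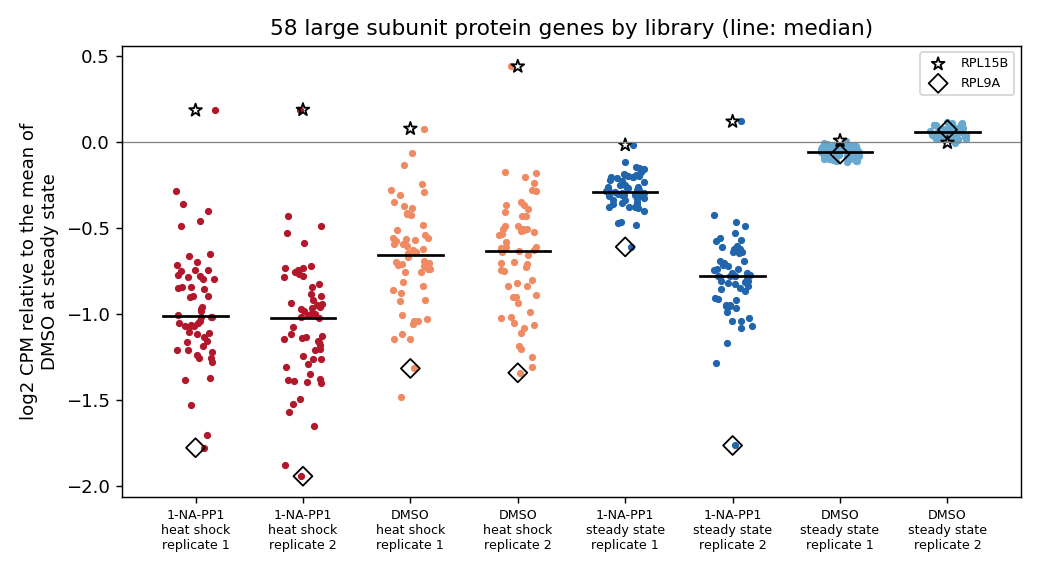
Log2 CPM of each of the 58 genes relative to its mean with DMSO at steady state, by library, with a line at the median and marks for RPL15B (star) and RPL9A (diamond). Medians are near -1.0 with 1-NA-PP1 under heat shock, -0.66 and -0.63 with DMSO under heat shock, and -0.29 and -0.78 with 1-NA-PP1 at steady state.

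The lowest changes at steady state were those of RPL9A (-1.07 ± 0.30, SE, adjusted p 0.0700), RPL1B (-0.83), RPL12A (-0.78), RPL11B (-0.74), RPL8B (-0.69), RPL5 (-0.68), RPL2A (-0.67), RPL22A (-0.65), RPL3 (-0.63) and RPL4A (-0.63). RPL5 had 247 and 161 CPM with 1-NA-PP1 and 315 and 337 CPM with DMSO. Both 1-NA-PP1 libraries of RPL5 lay below both DMSO libraries, and they differed from each other by more than the DMSO libraries did. The changes nearest to 0 were those of RPL33A (-0.39), RPL14B (-0.39), RPL31A (-0.37), RPL33B (-0.35), RPL27B (-0.34), RPL25 (-0.34), RPL27A (-0.33), RPL9B (-0.32) and RPL30 (-0.29), with RPL15B at 0.05 ± 0.12. RPL15B was the member whose groups overlapped.

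Under heat shock all 58 members had a negative change with 1-NA-PP1, against 49.9% of features. The median was -0.36, with 0.00 for all features. None was called, where 0.122% of features were called lower and 0.204% higher. At an unadjusted p under 0.05, 18 members were lower, against 7.1% of features, and 0 were higher, against 7.79%. With DESeq2 0 members were called, where 2.04% of features were called lower and 2.59% higher. In 53 members both 1-NA-PP1 libraries lay below both DMSO libraries, against 22.8% of features. These 53 also had both heat-shocked DMSO libraries below both DMSO steady state libraries, an order found in 11% of features, and the comparisons share the heat-shocked DMSO libraries. The heat-shocked replicates were close, with median log2 differences from DMSO at steady state of -1.01 and -1.02 with 1-NA-PP1 and of -0.66 and -0.63 with DMSO. Without replicate 1 or replicate 2 of 1-NA-PP1 at steady state, libraries of neither group compared, 16 and 17 members were called lower, against 2.66% and 2.7% of features.

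The lowest changes under heat shock were RPL9A (-0.53 ± 0.37, SE, adjusted p 0.537), RPL5 (-0.51), RPL21B (-0.50), RPL15A (-0.47), RPL31B (-0.46), RPL24A (-0.45), RPL2A (-0.44), RPL12A (-0.44), RPL25 (-0.43) and RPL26A (-0.43). RPL21B had 20.3 and 20.1 CPM with 1-NA-PP1 and 31.1 and 25.9 with DMSO. RPL5 had 149 and 128 CPM with 1-NA-PP1 and 211 and 182 with DMSO. The groups did not overlap for either gene. Nearest to 0 were RPL20A (-0.24), RPL9B (-0.22), RPL19A (-0.20), RPL22B (-0.19), RPL14B (-0.19), RPL1B (-0.17), RPL33B (-0.12), RPL7B (-0.12), RPL1A (-0.09) and RPL15B (-0.08).

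**Figure D5:**
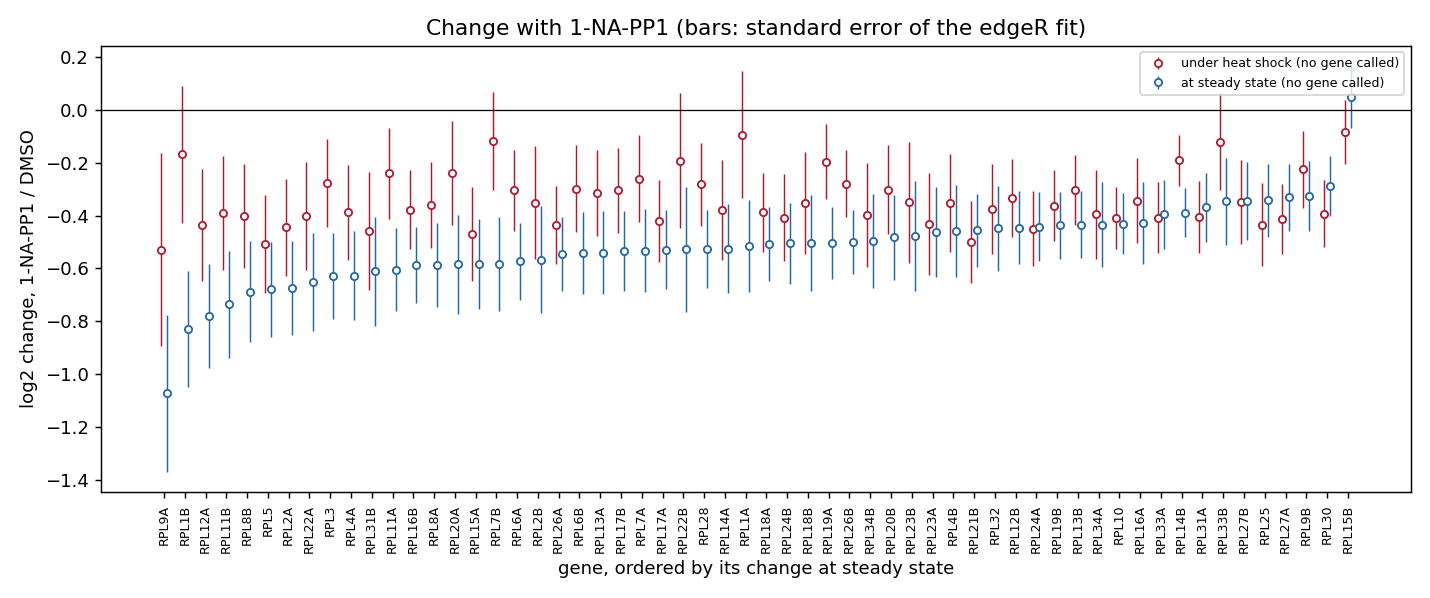
Log2 change of 1-NA-PP1 over DMSO for the 58 genes under heat shock (red) and at steady state (blue), with bars for the standard error of the fit and open points because no gene was called. RPL9A is lowest in both, and RPL15B is the gene nearest to 0 under heat shock and the one above 0 at steady state.

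Other ribosomal protein genes also fell under heat shock. The share of all features that fell was 28.1% with 1-NA-PP1 and 28.9% with DMSO. Of 16 further large subunit protein genes, 13 fell under heat shock with 1-NA-PP1 and 15 with DMSO, with medians of -0.77 and -0.87. Of 55 small subunit protein genes measured, 32 and 39 fell, with medians of -0.54 and -0.71. Of 5 genes for the acidic stalk proteins, 0 fell with 1-NA-PP1 and 1 fell with DMSO, with medians of -0.46 and -0.57. For 1-NA-PP1 against DMSO at steady state the medians were -0.46, -0.48 and -0.62 for these lists, with 0 genes called in each. At an unadjusted p under 0.05, 10, 47 and 5 of their genes were lower, against 15% of features.

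Escort proteins bind newly made L proteins and carry them to the assembling subunit. Of 9 escort genes, 1 fell and 2 rose under heat shock with 1-NA-PP1, where 28.1% of all features fell and 25.3% rose. With DMSO 5 fell and 1 rose, where 28.9% of features fell and 29.6% rose. LOC1, which escorts a protein of this subunit with Puf6, fell in both, by 0.48 with 1-NA-PP1 and by 0.77 with DMSO, and SQT1, the escort of L10, rose in both, by 0.68 and by 0.39. PUF6 changed by 0.05 with 1-NA-PP1 (not called) and fell by 0.73 with DMSO. ACL4, the escort of L4, rose by 0.51 with 1-NA-PP1 and changed by -0.27 with DMSO (not called). RRS1 and RPF2, which load the 5S particle, changed by -0.16 and 0.06 with 1-NA-PP1 (not called) and fell by 0.95 and 0.85 with DMSO. In the interaction 0 of the 9 were called, with 4 higher at an unadjusted p under 0.05, against 5.67% of features. At steady state with 1-NA-PP1 0 of the 9 were called, and their median was -0.77. All 9 were lower at an unadjusted p under 0.05, against 15% of features.

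Of 9 measured regulators of ribosomal protein genes, RAP1 fell under heat shock by 1.10 with 1-NA-PP1 and by 1.10 with DMSO. CRF1, a corepressor that acts through Fhl1, rose by 1.40 with 1-NA-PP1 and by 1.15 with DMSO. With 1-NA-PP1 the repressor genes TOD6 (0.996) and DOT6 (0.45) rose, and neither was called with DMSO. HMO1 (-0.30) fell and the kinase gene SCH9 (0.34) rose with 1-NA-PP1, both named after their values were seen. STB3 rose with DMSO (0.30). The regulator list thus held 2 lower and 4 higher genes with 1-NA-PP1, where 28.1% of all features were lower and 25.3% higher. With DMSO it held 1 lower and 2 higher, where 28.9% of features were lower and 29.6% higher. These counts are too small to set apart from the shares of all features.

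The authors' deposited tables give heat changes after their own scaling. In the authors' deposited table with 1-NA-PP1, 24 of 58 members were lower at an adjusted p under 0.05, against 17.997% of features, with members between -2.15 and -0.46. In the authors' deposited table with DMSO, 57 of 58 were lower, against 41.8% of features, with members between -1.70 and -0.03.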

How the data were processed

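Counts and lists concern 4tU-seq libraries of 4 groups with 2 libraries each. The authors deposited raw counts per open reading frame transcript. The submitters' processing notes name DESeq2, HTSeq, SAMtools, STAR 2.5.2b, cutadapt 1.9.1 and the build sacCer3, without their roles. Strand setting and treatment of multiple matches are not given in the sources used here. Per the file headers, the authors' deposited tables hold log2 fold changes, test statistics (a score) and p-values. The deposited normalised values (signal) are raw counts divided by a factor per library, whose estimation is not stated. Coordinates are from the deposited annotation.

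Raw counts were tested in R 4.3.3 with edgeR 4.0.16 (filterByExpr, TMM, quasi-likelihood, 8 libraries in 1 model, Benjamini-Hochberg adjusted p under 0.05, two-sided). Alternatives were DESeq2 1.42.0, RLE factors, no filter, the groups compared alone, a replicate block, each library left out, the deposited scaling, and omission of features with an antisense neighbour. CPM are edgeR's, with TMM library sizes. Per-sample A shares were compared by exact permutation tests. The steps were tested on simulated data. These held 200 changed genes, fewer than the features called under heat shock, and more shifted pairs than the data showed. They therefore do not tell how the tests fare at the settings of these data. Positions are those of sacCer3 (R64): 4842 of 4928 features matched a RefSeq gene by name, and 4842 hold it whole. The genes named were the 10 lowest and 10 highest members of each comparison, the pairs with the largest gaps, the extremes of level and all single-copy genes. Members and lists were chosen with earlier results of these data known.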

Additional observations from a re-analysis of the deposited data

How the results depend on the processing

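Counts of called members were within 1.5 times of those reported under RLE factors, no filter and omission of antisense neighbours, for all 5 comparisons. DESeq2 called 44 members lower with 1-NA-PP1 at steady state, against 0. Under the deposited scaling the count for heat shock with 1-NA-PP1 was 1, against 29. With a library left out, counts ranged from 0 to 57 for 1-NA-PP1 at steady state, from 0 to 17 for 1-NA-PP1 under heat shock, from 12 to 53 for heat shock with 1-NA-PP1, from 30 to 56 for heat shock with DMSO and from 0 to 24 for the interaction. These ranges count lower and higher calls together, and the counts over all features also moved with the library left out. The cause was not tested. The interaction could not be computed under the deposited scaling, which was made separately for each comparison, and it uses all groups in any fit. Where a group is left with 1 library, that library is assumed to vary like the others. Pairs with a shifted A share were 0 under every alternative run, where a shift of a few pairs could not be called. The smallest adjusted p for heat shock was 0.0794 to 0.204 with a library left out, while the restricted permutations, with 36 arrangements, cannot pass the threshold and say nothing of stability.

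The replicate block left the counts at 0 for 1-NA-PP1 at steady state, 0 for 1-NA-PP1 under heat shock, 29 for heat shock with 1-NA-PP1, 47 for heat shock with DMSO and 0 for the interaction. Deviations of same-numbered libraries from their group means correlated at -0.36 at steady state, 0.37 for heat shock with 1-NA-PP1, 0.06 for heat shock with DMSO and -0.09 under heat shock, so the numbers were not taken to pair libraries. A block with the numbers of 1-NA-PP1 at steady state exchanged, chosen after seeing the data, called 16 members lower, against 5% of features.

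Of 100 values of named genes, 25 changed sign under some alternative, and 0 of these were called in the fit reported. For 1-NA-PP1 at steady state RPL15B ranged from -0.020 to 0.12 with a library left out, and was -0.00074 with no filter and -0.22 under the deposited scaling. For 1-NA-PP1 under heat shock the ranges were -0.45 to 0.046 for RPL22B, -0.27 to 0.034 for RPL33B, -0.38 to 0.17 for RPL1A and -0.25 to 0.12 for RPL15B. For heat shock with DMSO RPL15B ranged from 0.00045 to 0.37, and was -0.028 under the deposited scaling. For heat shock with 1-NA-PP1 the ranges were -0.48 to 0.018 for RPL16B, -0.53 to 0.17 for RPL12A, -0.46 to 0.093 for RPL7A, -0.40 to 0.16 for RPL18B, -0.25 to 0.068 for RPL9B, -0.39 to 0.27 for RPL2A, -0.10 to 0.49 for RPL3 and -0.048 to 0.56 for RPL7B. The deposited scaling gave -0.49 for RPL15B, -0.53 for RPL3 and -0.46 for RPL7B.

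For the interaction the ranges were -0.25 to 0.12 for RPL15B, -0.23 to 0.047 for RPL30, -0.28 to 0.13 for RPL25, -0.25 to 0.12 for RPL27A, -0.21 to 0.15 for RPL21B, -0.21 to 0.17 for RPL31A, -0.20 to 0.20 for RPL33A, -0.18 to 0.19 for RPL24A, -0.23 to 0.27 for RPL27B and -0.15 to 0.21 for RPL10. With no filter RPL21B was 0.016, RPL31A 0.022, RPL33A 0.045, RPL24A 0.051 and RPL27B 0.055. DESeq2 gave 0.0042 for RPL33A, 0.0098 for RPL24A and 0.013 for RPL27B, and RLE factors gave 0.0043, 0.0097 and 0.014. The replicate block gave 0.00080 for RPL24A and 0.0015 for RPL27B, and omission of antisense neighbours gave 0.0029 for RPL27B.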

Other observations

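Of 5 control genes of the heat shock response, 4 already stood above the 96th percentile per kilobase with DMSO at steady state, and HSP26 did not. BTN2 had 3909 CPM per kilobase with DMSO under heat shock and 3025 with DMSO at steady state. HSP104 had 2008 and 1288 CPM per kilobase in these groups, where the median member had 53.5 and 90.5. HSP26 had 456 CPM per kilobase with DMSO under heat shock and 35.8 with DMSO at steady state, the 96.1th and 22.7th percentiles of all features. In 19 of 58 members the level with DMSO under heat shock was above that of the median feature, against 34 with DMSO at steady state.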
